A study of Homo sapiens with 6 samples.

Results

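Cadherins are calcium-dependent adhesion proteins of the cell surface. The 63 genes described here are those whose symbol reads CDH followed by a number, 21 genes, or begins with PCDH, 42 genes. They were taken from the 18417 symbols that the array's annotation pairs with at least 1 probe set of their own, which is called a transcript cluster below. Where a symbol had several such clusters, the brightest on average stood for the gene, which concerned only PCDHA2. The members comprised 4 type I cadherins, 13 type II cadherins, 4 other CDH genes, 12 alpha, 18 beta and 1 gamma protocadherin of the clustered families, and 11 nonclustered protocadherins.

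Type I and type II cadherins join like cells at adherens junctions and are tied to the actin cytoskeleton through catenins. In carcinomas, loss of CDH1 (E-cadherin) and gain of CDH2 (N-cadherin), CDH3 (P-cadherin) or CDH11 are much studied in connection with invasion. The clustered protocadherins lie in tandem arrays, each variable exon has its own promoter, and single neurons use different subsets of them. Most of those promoters share a conserved element that binds the factor CTCF, and DNA methylation and cohesin are known to act on their choice.

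The study set sorted cells of 231BrM-2a and 231BoM-1833, derivatives of the human breast cancer line MDA-MB-231 selected for metastasis to brain and to bone, beside those of untreated MDA-MB-231, the parental line of mesenchymal, triple-negative character. All 3 populations were grown in the same medium and sorted with magnetic beads for cells without CD24 that carried CD44 and ESA, the protein of EPCAM. Each line gave 2 arrays labelled as biological replicates, and each derivative is 1 selected line. Nothing in the labels ties the 2 replicates to separate cultures, so a p-value here reflects only how far these samples spread, and that spread may be technical.

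Values are log2 expression on 1 scale for all 6 arrays, whose medians lay between 6.58 and 6.64. Replicate arrays correlated at r = 0.9935 to 0.9959 across the 21214 clusters with a symbol, and pairs from 2 lines at r = 0.9666 to 0.9832; clusters are not independent replicates. The 231BoM-1833 replicates were far apart on the sort markers, with EPCAM at 8.15 and 8.23 in 231BrM-2a, 8.32 and 7.28 in 231BoM-1833 and 8.13 and 7.93 in MDA-MB-231, and CD24 at 5.91 and 5.91 in 231BrM-2a, 6.49 and 5.76 in 231BoM-1833 and 6.20 and 6.04 in MDA-MB-231. CD44 stood at 11.45 and 11.46 in 231BrM-2a, 12.17 and 11.82 in 231BoM-1833 and 11.87 and 11.86 in MDA-MB-231. For these markers and the gene lists below, the brightest cluster with 1 symbol stood for each gene, and other clusters of a gene may differ. Whether the clusters of EPCAM and CD24 read RNA of these genes alone was not checked. VIM, the mesenchymal filament gene, had values of 12.30 and 12.34 in 231BrM-2a, 12.91 and 12.92 in 231BoM-1833 and 12.68 and 12.70 in MDA-MB-231, and KRT8, a keratin of simple epithelium, of 12.14 and 12.33 in 231BrM-2a, 11.71 and 11.52 in 231BoM-1833 and 11.52 and 11.45 in MDA-MB-231. The files give no level below which a cluster counts as not expressed, and only 17 of the 63 members passed a filter that left out dim clusters, so levels of many members may lie at background. In a sorted population, fewer cells expressing a gene and less RNA per cell cannot be told apart.

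Between 231BoM-1833 and MDA-MB-231, 10 of 63 members passed the test, 3 higher and 7 lower, or 15.9%, against 15.8% of all 21214 clusters (8.43% higher and 7.38% lower). Between 231BrM-2a and MDA-MB-231, 7 members passed, 4 higher and 3 lower, or 11.1%, against 19.0% of all clusters (10.5% higher and 8.59% lower). Between 231BrM-2a and 231BoM-1833, 11 passed, 8 higher and 3 lower, or 17.5%, against 23.5% of all clusters (12.5% higher and 11.0% lower). The family as a whole was thus called at about the rate of the array or below it. Its median log2 change was -0.041, -0.044 and -0.005 in the same order of comparisons, against -0.052, -0.05 and 0.013 over all clusters, and its median size of change was 0.155, 0.121 and 0.16, against 0.184, 0.186 and 0.183. The arrays of the 2 lines did not overlap for 27, 27 and 31 members, against 59.8%, 63.8% and 60.1% of all clusters. The 2 comparisons with MDA-MB-231 share its arrays. In all, 16 members passed in at least 1 comparison, 9 of them beta protocadherins, and 47 passed in none. The share of all clusters that passed in at least 1 comparison was not counted, so these totals cannot be set against the array. Most of the calls below rest on single arrays, and each array whose removal ends a call is named with it. With the clusters lacking a symbol tested too, 4 members (6.35%) passed in 231BoM-1833 against MDA-MB-231, beside 6.67% of all clusters, 4 (6.35%) in 231BrM-2a against MDA-MB-231, beside 8.69%, and 8 (12.7%) in 231BrM-2a against 231BoM-1833, beside 12.8%.

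**Figure D1:**
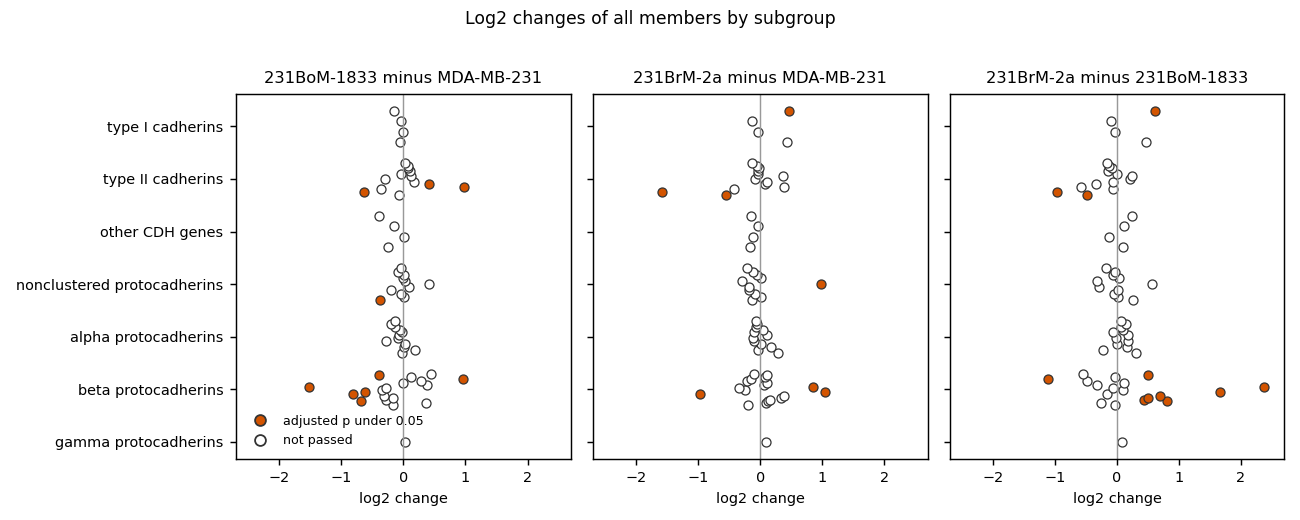
Log2 change of each of the 63 members (1 point a gene) by subgroup in the 3 comparisons, on the x axis; filled points passed limma's test at an adjusted p under 0.05. The widest scatter is among the 18 beta protocadherins, from -1.12 to 2.38 in 231BrM-2a minus 231BoM-1833, while the 12 alpha protocadherins lie between -0.23 and 0.31 there.

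The beta protocadherins were called more often than the array in 2 of the 3 comparisons and less often in 231BrM-2a against MDA-MB-231. They are single-exon genes in 1 tandem array on chromosome 5. Apart from the pseudogenes PCDHB17P and PCDHB18P, which count among the 18, each makes a neuronal-type adhesion protein with its own set of extracellular domains. Of 18 measured, 6 passed in 231BoM-1833 against MDA-MB-231, 1 higher and 5 lower, or 33.3% against 15.8% of all clusters. In 231BrM-2a against MDA-MB-231, 3 passed, 2 higher and 1 lower, or 16.7% against 19.0%. Between 231BrM-2a and 231BoM-1833, 8 passed, 7 higher and 1 lower, or 44.4% against 23.5%. Their median size of change was 0.354, 0.176 and 0.458 in these comparisons, against 0.184, 0.186 and 0.183 over all clusters. These shares are descriptions with no test of the list. These genes are close copies of each other, so the probes of 1 gene may also take up RNA of another, which was not tested; no 2 members had identical values.

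The promoters of 4 of these genes are printed to show what the array of genes shares: PCDHB2, PCDHB16 and PCDHB14 differed between the derivatives, and PCDHB3, the next measured gene after PCDHB2, passed in no comparison. Each runs 5′ to 3′ from 250 bases before the gene's start to 50 after it, from RefSeq on GRCh38.p14. Capitals mark GGTGGCGCT, a run read from these sequences, which holds the CGCT letters known from the conserved element of clustered protocadherin promoters.
PCDHB2, chr5:141094365-141094664, plus strand: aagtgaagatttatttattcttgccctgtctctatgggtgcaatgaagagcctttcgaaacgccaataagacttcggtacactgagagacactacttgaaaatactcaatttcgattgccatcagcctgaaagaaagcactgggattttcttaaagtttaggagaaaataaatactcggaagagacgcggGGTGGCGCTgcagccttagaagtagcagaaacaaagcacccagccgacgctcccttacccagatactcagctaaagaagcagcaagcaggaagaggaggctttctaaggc
PCDHB16, chr5:141182137-141182436, plus strand: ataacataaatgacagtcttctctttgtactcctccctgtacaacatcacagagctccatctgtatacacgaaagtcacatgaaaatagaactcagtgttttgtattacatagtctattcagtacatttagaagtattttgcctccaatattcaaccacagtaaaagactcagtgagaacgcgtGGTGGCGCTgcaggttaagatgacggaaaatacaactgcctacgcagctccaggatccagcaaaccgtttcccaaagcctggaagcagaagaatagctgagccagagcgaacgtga
PCDHB14, chr5:141223093-141223392, plus strand: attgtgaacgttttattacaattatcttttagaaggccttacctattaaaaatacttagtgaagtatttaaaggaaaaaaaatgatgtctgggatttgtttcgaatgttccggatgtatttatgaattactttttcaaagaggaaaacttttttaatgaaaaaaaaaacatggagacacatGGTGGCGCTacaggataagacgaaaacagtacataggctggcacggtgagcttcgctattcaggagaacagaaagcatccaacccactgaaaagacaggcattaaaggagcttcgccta
PCDHB3, chr5:141100223-141100522, plus strand: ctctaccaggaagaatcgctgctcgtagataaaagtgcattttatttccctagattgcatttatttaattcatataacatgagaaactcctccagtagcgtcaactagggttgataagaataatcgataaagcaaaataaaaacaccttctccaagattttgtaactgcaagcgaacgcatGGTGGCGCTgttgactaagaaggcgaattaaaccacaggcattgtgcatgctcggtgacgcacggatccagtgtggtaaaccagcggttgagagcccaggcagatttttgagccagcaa

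RefSeq promoters were at hand for 14 of the 18 beta members, and 13 of these held GGTGGCGCT, searched on both strands, always on the gene's own strand. Its first base lay between positions -84 and -2 from the gene's start. PCDHB1 was the exception among the 14. The same letters occurred in 0.501% of all 35116 promoter windows of that length, and in none of the 10 alpha promoters at hand, nor in those of the other members at hand. The run was read from beta promoters and only exact matches were counted, so these shares are no test of the beta genes. Variants of the conserved element were not searched for, and the alpha promoters may hold them. Members with GGTGGCGCT included genes that rose, fell or did not pass. As 13 of the 14 promoters held it, its presence could not tell such genes apart. No promoter was at hand for PCDHB6 or PCDHB11. Whether these letters bear on the changes was not tested. The median count of CpG pairs in a window was 7.5 for the beta genes, 6.0 for the alpha genes and 14.0 for all windows.

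PCDHB2 had the widest spread between lines. Its log2 values were 7.35 and 7.52 in 231BrM-2a, 5.19 and 4.92 in 231BoM-1833 and 6.30 and 6.86 in MDA-MB-231, and no 2 lines overlapped. It was 5.19-fold higher in 231BrM-2a than in 231BoM-1833 (2.38 ± 0.18, adjusted p = 2.69e-05). Against MDA-MB-231 it fell 2.87-fold in 231BoM-1833 (-1.52 ± 0.18, adjusted p = 0.00106) and rose 1.81-fold in 231BrM-2a (0.85 ± 0.18, adjusted p = 0.0104). The call of the rise ended without 231BrM-2a replicate 2 (0.77, adjusted p = 0.0797) or MDA-MB-231 replicate 1 (0.58, adjusted p = 0.0625).

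PCDHB16 followed the same order of lines. It had log2 values of 6.77 and 6.81 in 231BrM-2a, 5.13 and 5.12 in 231BoM-1833 and 5.63 and 5.85 in MDA-MB-231, again without overlap between lines. The difference of 231BrM-2a from 231BoM-1833 was 3.18-fold (1.67 ± 0.11, adjusted p = 1.39e-05). The gene rose 2.07-fold in 231BrM-2a (1.05 ± 0.11, adjusted p = 0.000334) and fell 1.54-fold in 231BoM-1833 against MDA-MB-231 (-0.62 ± 0.11, adjusted p = 0.00768). Leaving out MDA-MB-231 replicate 2 ended the call of the fall (-0.51, adjusted p = 0.0735).

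PCDHB6 went the other way. Its log2 values were 4.75 and 4.82 in 231BrM-2a, 6.16 and 5.64 in 231BoM-1833 and 4.85 and 5.03 in MDA-MB-231, with both 231BoM-1833 arrays above all others. It rose 1.95-fold in 231BoM-1833 against MDA-MB-231 (0.96 ± 0.16, adjusted p = 0.00596), which leaving out MDA-MB-231 replicate 1 ended (0.87, adjusted p = 0.0522). It was 2.17-fold lower in 231BrM-2a than in 231BoM-1833 (-1.12 ± 0.16, adjusted p = 0.00129). Its difference between 231BrM-2a and MDA-MB-231 was -0.15 ± 0.16, adjusted p = 0.56.

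In chromosomal order, 4 neighbouring measured genes, PCDHB11, PCDHB12, PCDHB13 and PCDHB14, were higher in 231BrM-2a than in 231BoM-1833. PCDHB11 had log2 values of 6.53 and 6.24 in 231BrM-2a, 5.64 and 5.52 in 231BoM-1833 and 6.36 and 6.17 in MDA-MB-231, with 231BoM-1833 below both other lines. It differed by 0.80 ± 0.13, adjusted p = 0.00212 between the derivatives and fell by 0.68 ± 0.13 on the log2 scale in 231BoM-1833 against MDA-MB-231 (adjusted p = 0.00973), a call lost without MDA-MB-231 replicate 1 (adjusted p = 0.0722). PCDHB14 had 5.63 and 5.81 in 231BrM-2a, 5.20 and 4.84 in 231BoM-1833 and 5.30 and 5.38 in MDA-MB-231, and its difference between the derivatives was 0.70 ± 0.14, adjusted p = 0.00597, lost without 231BrM-2a replicate 2 (adjusted p = 0.0547). For PCDHB13 the values were 4.84 and 5.21 in 231BrM-2a, 4.57 and 4.46 in 231BoM-1833 and 4.77 and 4.59 in MDA-MB-231. Its difference of 0.51 ± 0.14, adjusted p = 0.0286 was not called without 231BoM-1833 replicate 2 (adjusted p = 0.109) or 231BrM-2a replicate 2 (adjusted p = 0.21). PCDHB12 had 5.77 and 5.44 in 231BrM-2a, 5.23 and 5.11 in 231BoM-1833 and 5.37 and 5.53 in MDA-MB-231 and differed by 0.43 ± 0.14, adjusted p = 0.0469. That call was lost without either 231BoM-1833 array (adjusted p = 0.0636 and 0.166) or 231BrM-2a replicate 1 (adjusted p = 0.304), with a replicate block (adjusted p = 0.0579) and with only the 4 arrays of these lines in the fit (adjusted p = 0.0668). PCDHB13 and PCDHB12 were also not called with clusters lacking a symbol tested too (adjusted p = 0.0772 and 0.107).

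PCDHB15, at the end of the array, was low in both derivatives. It had log2 values of 3.94 and 4.35 in 231BrM-2a, 4.55 and 4.07 in 231BoM-1833 and 5.01 and 5.23 in MDA-MB-231, so both MDA-MB-231 arrays lay above the other 4. It fell 1.97-fold in 231BrM-2a (-0.98 ± 0.18, adjusted p = 0.00631) and 1.76-fold in 231BoM-1833 (-0.81 ± 0.18, adjusted p = 0.0197), comparisons that share the MDA-MB-231 arrays. The first call was lost without 231BrM-2a replicate 1 (adjusted p = 0.0527) or MDA-MB-231 replicate 2 (adjusted p = 0.0647). The second was lost without 231BoM-1833 replicate 2 or either MDA-MB-231 array (adjusted p between 0.061 and 0.139) and with clusters lacking a symbol tested too (adjusted p = 0.0649). PCDHB8 had 4.22 and 4.24 in 231BrM-2a, 3.63 and 3.84 in 231BoM-1833 and 4.14 and 4.11 in MDA-MB-231. It differed by 0.50 ± 0.11, adjusted p = 0.0103 between 231BrM-2a and 231BoM-1833, not called without either 231BrM-2a array (adjusted p = 0.0573 and 0.0649). Its fall in 231BoM-1833 against MDA-MB-231 (-0.39 ± 0.11, adjusted p = 0.0434) was lost under 6 of the 10 alternatives run, among them leaving out 231BoM-1833 replicate 1 or either MDA-MB-231 array (adjusted p between 0.148 and 0.158).

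The other 9 beta members passed in no comparison, with adjusted p between 0.0533 and 0.97. They were PCDHB1, PCDHB3, PCDHB4, PCDHB5, PCDHB7, PCDHB9 and PCDHB10 and the pseudogenes PCDHB17P and PCDHB18P. PCDHB9 had 6.03 and 6.18 in 231BrM-2a, 7.05 and 6.24 in 231BoM-1833 and 6.29 and 6.10 in MDA-MB-231, with an SD of 0.568 in 231BoM-1833. PCDHB3, the neighbour of PCDHB2, had 4.85 and 4.65 in 231BrM-2a, 5.19 and 4.97 in 231BoM-1833 and 4.71 and 4.69 in MDA-MB-231, with a difference of 0.38 ± 0.12, adjusted p = 0.062 in 231BoM-1833 against MDA-MB-231, beside the fall of PCDHB2 by 1.52.

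**Figure D2:**
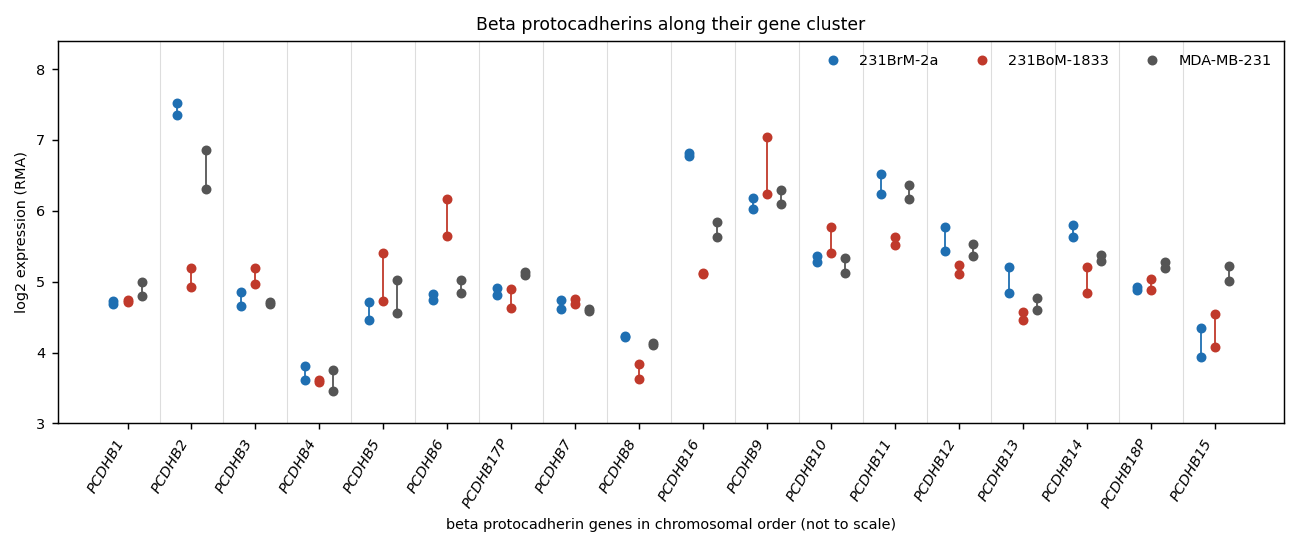
Log2 expression of the 18 beta protocadherins, in chromosomal order on the x axis and not to scale; each point is 1 array, and a line joins the 2 arrays of a cell line. PCDHB2 and PCDHB16 are highest in 231BrM-2a, at 7.43 and 6.79 on average, and PCDHB6 in 231BoM-1833, at 5.90.

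The alpha protocadherins, whose variable exons are spliced to shared constant exons, gave no calls. Of 12 members (PCDHA1 to PCDHA8 and PCDHA10 to PCDHA13), limma called 0 in each of the 3 comparisons, beside 15.8%, 19.0% and 23.5% of all clusters. At an unadjusted p under 0.05 there were 0, 1 and 1 in the order used above, beside 6887, 6937 and 7330 of all 21214 clusters. Their log2 changes lay between -0.28 and 0.19 in 231BoM-1833 against MDA-MB-231, between -0.12 and 0.29 in 231BrM-2a against MDA-MB-231, and between -0.23 and 0.31 between 231BrM-2a and 231BoM-1833. The 1 gamma member, PCDHGB4, had 6.85 and 6.68 in 231BrM-2a, 6.59 and 6.78 in 231BoM-1833 and 6.55 and 6.79 in MDA-MB-231 and adjusted p between 0.645 and 0.943.

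The 11 nonclustered protocadherins include regulators of cell movement in development. In limma's test 1 passed in each derivative against MDA-MB-231 (9.09% in both), beside 15.8% of all clusters in 231BoM-1833 and 19.0% in 231BrM-2a. Between the derivatives 0 passed, beside 23.5% of all clusters. There, 3 members had an unadjusted p under 0.05, beside 7330 of all 21214 clusters. PCDH18 had log2 values of 5.34 and 5.90 in 231BrM-2a, 5.28 and 4.82 in 231BoM-1833 and 4.47 and 4.80 in MDA-MB-231. Both 231BrM-2a arrays lay above those of both other lines. It rose 1.98-fold in 231BrM-2a against MDA-MB-231 (0.99 ± 0.21, adjusted p = 0.0115), a call lost without 231BrM-2a replicate 2 or MDA-MB-231 replicate 1 (adjusted p = 0.0879 for both) and with clusters lacking a symbol tested too (0.0523). PCDH1, an adhesion protein of airway epithelium, had 6.92 and 6.89 in 231BrM-2a, 6.63 and 6.68 in 231BoM-1833 and 7.11 and 6.96 in MDA-MB-231. It was lower in 231BoM-1833 than in MDA-MB-231 (-0.38 ± 0.11, adjusted p = 0.0393), but this small difference was lost under 8 of the 11 alternatives run, among them each array left out of either line, a repeated quantile normalization (adjusted p = 0.0526) and a replicate block (0.0653), with adjusted p up to 0.186. PCDH7, PCDH8, PCDH9, PCDH10, PCDH12, PCDH15, PCDH17, PCDH19 and PCDH20 passed in no comparison (adjusted p between 0.141 and 0.994).

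CDH11, the type II cadherin of mesenchymal cells and osteoblasts, had the largest change of any CDH gene. Its log2 values were 5.83 and 5.40 in 231BrM-2a, 6.53 and 6.62 in 231BoM-1833 and 7.21 and 7.20 in MDA-MB-231, and the lines did not overlap. It fell 3.01-fold in 231BrM-2a (-1.59 ± 0.14, adjusted p = 0.000128) and 1.55-fold in 231BoM-1833 (-0.63 ± 0.14, adjusted p = 0.0196) against the same MDA-MB-231 arrays. It was 1.94-fold lower in 231BrM-2a than in 231BoM-1833 (-0.96 ± 0.14, adjusted p = 0.00139). The call in 231BoM-1833 was lost without its replicate 1 (adjusted p = 0.0627), without either MDA-MB-231 array (0.0903 and 0.107) and with clusters lacking a symbol tested too (0.0605); the other 2 calls passed under every alternative run. Of 6 fibroblast markers, 4 rose and 0 fell in 231BrM-2a against MDA-MB-231, or 66.7%, beside 19.0% of all clusters. Among them PDGFRB, a growth factor receptor, rose by 1.70 ± 0.13, adjusted p = 6.54e-05. DCN, which encodes the matrix proteoglycan decorin, rose by 0.98 ± 0.16, adjusted p = 0.00296. The log2 of the summed level of all 6 markers was 9.60 to 9.82 in 231BrM-2a, 8.96 to 9.04 in 231BoM-1833 and 8.94 to 9.01 in MDA-MB-231. Their part in the change of CDH11 was not tested.

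A further 3 type II cadherins, all known best from the nervous system, passed a test. Of the 13 type II members, CDH11 included, 3, 2 and 2 passed in the order of comparisons used above. These were 23.1%, 15.4% and 15.4%, beside 15.8%, 19.0% and 23.5% of all clusters. CDH18 had log2 values of 5.89 and 6.52 in 231BrM-2a, 7.06 and 6.51 in 231BoM-1833 and 6.09 and 5.54 in MDA-MB-231, with wide gaps between replicates in every line. It rose 1.96-fold in 231BoM-1833 against MDA-MB-231 (0.97 ± 0.26, adjusted p = 0.034), not held without 231BoM-1833 replicate 1 (0.69, adjusted p = 0.141), without MDA-MB-231 replicate 1 (adjusted p = 0.0502) or replicate 2 (0.69, adjusted p = 0.221), and with clusters lacking a symbol tested too (adjusted p = 0.0978). CDH10 had 4.24 and 4.53 in 231BrM-2a, 4.71 and 5.03 in 231BoM-1833 and 4.85 and 5.03 in MDA-MB-231, with the 231BrM-2a arrays lowest. It was lower in 231BrM-2a than in MDA-MB-231 (-0.55 ± 0.15, adjusted p = 0.0312) and than in 231BoM-1833 (-0.49 ± 0.15, adjusted p = 0.0427). The first call was lost without 231BrM-2a replicate 1 or either MDA-MB-231 array (adjusted p between 0.0686 and 0.194) and with clusters lacking a symbol tested too (0.0903). The second was lost without 231BoM-1833 replicate 2 (0.206), without 231BrM-2a replicate 1 (0.264), after a repeated quantile normalization (0.0526), with clusters lacking a symbol tested too (0.105) and with only the 4 arrays of these lines in the fit (0.0616). CDH19 had 4.01 and 3.98 in 231BrM-2a, 4.23 and 4.44 in 231BoM-1833 and 3.93 and 3.90 in MDA-MB-231, and its rise in 231BoM-1833 against MDA-MB-231 (0.41 ± 0.11, adjusted p = 0.0354) was lost under 6 of the 10 alternatives run, among them leaving out 231BoM-1833 replicate 2 or either MDA-MB-231 array (adjusted p between 0.115 and 0.168). CDH5, the VE-cadherin of endothelium, had 5.49 and 5.54 in 231BrM-2a, 5.46 and 5.58 in 231BoM-1833 and 5.58 and 5.54 in MDA-MB-231, and no comparison passed (adjusted p between 0.812 and 0.981). CDH6, CDH7, CDH8, CDH9, CDH12, CDH20, CDH22 and CDH24 did not pass either (adjusted p of 0.0578 or more).

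Of the 4 type I cadherins, only CDH3, the P-cadherin of basal epithelium, passed a test. In the order of comparisons used above, 0%, 25% and 25% of the 4 passed, beside 15.8%, 19.0% and 23.5% of all clusters. CDH3 had log2 values of 6.14 and 6.46 in 231BrM-2a, 5.70 and 5.67 in 231BoM-1833 and 5.73 and 5.95 in MDA-MB-231. Both 231BrM-2a arrays lay above the other 4. It was 1.53-fold higher in 231BrM-2a than in 231BoM-1833 (0.61 ± 0.14, adjusted p = 0.0104), lost without 231BrM-2a replicate 2 (adjusted p = 0.0905). Against MDA-MB-231 it rose 1.37-fold in 231BrM-2a (0.46 ± 0.14, adjusted p = 0.0448), a call lost without 231BrM-2a replicate 2 (0.286), without either MDA-MB-231 array (0.219 and 0.0783), with clusters lacking a symbol tested too (0.111) and with crossed replicate numbers (0.0514). CDH1 had 5.48 and 5.96 in 231BrM-2a, 5.19 and 5.30 in 231BoM-1833 and 5.25 and 5.34 in MDA-MB-231. Its difference between 231BrM-2a and MDA-MB-231 was 0.42 ± 0.15, adjusted p = 0.0865, with a 95% interval of 0.08 to 0.77, and between 231BrM-2a and 231BoM-1833 0.47 ± 0.15, adjusted p = 0.0532. The difference from 231BoM-1833 passed with a replicate block (adjusted p = 0.0359) and with averaged clusters (0.0492), and both passed without 231BrM-2a replicate 1 (adjusted p = 0.0224 against MDA-MB-231 and 0.0124 against 231BoM-1833).

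CDH2, the N-cadherin often gained by mesenchymal carcinoma cells, had log2 values of 5.33 and 5.40 in 231BrM-2a, 5.53 and 5.38 in 231BoM-1833 and 5.39 and 5.60 in MDA-MB-231, with all 3 lines overlapping. Its 95% intervals were -0.39 to 0.14 for 231BrM-2a minus MDA-MB-231 and -0.30 to 0.23 for 231BoM-1833 minus MDA-MB-231. CDH15, the M-cadherin of muscle, had 6.14 and 6.10 in 231BrM-2a, 6.19 and 6.11 in 231BoM-1833 and 6.15 and 6.17 in MDA-MB-231. The CDH genes of other classes, CDH16 and CDH17 of kidney and gut, CDH23, a tip-link protein of hair cells, and CDH26, passed in no comparison (adjusted p between 0.0576 and 0.987).

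**Figure D3:**
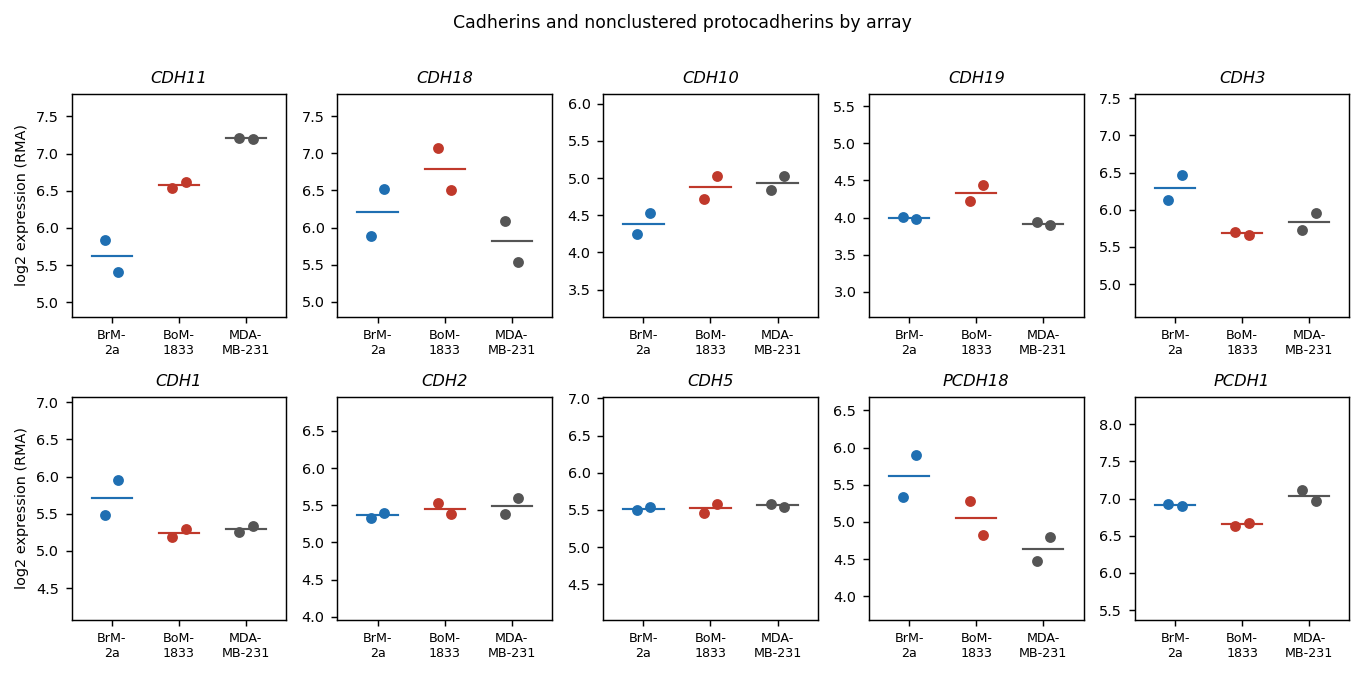
Log2 expression of 10 CDH and nonclustered PCDH genes by array; each point is 1 array, bars are the means of the 2 arrays, and every panel spans the same number of log2 units. CDH11 averages 5.62 in 231BrM-2a, 6.58 in 231BoM-1833 and 7.21 in MDA-MB-231, while CDH2 and CDH5 overlap between lines.

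Cytoplasmic partners of the cadherins were also read out; for these and the lists after them, arrays whose removal ends a call are named, and other alternatives are counted in the closing section. Of 21 catenins and junction partners measured, 5 rose and 3 fell in 231BoM-1833, and 2 rose and 0 fell in 231BrM-2a, against MDA-MB-231. Between 231BrM-2a and 231BoM-1833, 3 were higher and 1 lower. The calls were 38.1%, 9.52% and 19% of the list in these 3 comparisons, beside 15.8%, 19.0% and 23.5% of all clusters. CTNNB1 (beta-catenin) had 11.94 and 11.92 in 231BrM-2a, 11.99 and 11.77 in 231BoM-1833 and 11.74 and 11.82 in MDA-MB-231, and CTNNA1 (alpha-catenin) 11.58 and 11.59 in 231BrM-2a, 11.64 and 11.73 in 231BoM-1833 and 11.53 and 11.54 in MDA-MB-231; neither passed in any comparison (adjusted p of 0.337 or more). PLEKHA7, which links adherens junctions to microtubules, had 7.43 and 7.54 in 231BrM-2a, 6.65 and 6.39 in 231BoM-1833 and 7.71 and 7.55 in MDA-MB-231. It fell 2.16-fold in 231BoM-1833 against MDA-MB-231 (-1.11 ± 0.13, adjusted p = 0.000843) and was higher in 231BrM-2a than in 231BoM-1833 by 0.96 ± 0.13, adjusted p = 0.000638. NECTIN1, an immunoglobulin-type adhesion receptor, fell in 231BoM-1833 against MDA-MB-231 (-0.55 ± 0.11, adjusted p = 0.0112), not called without either MDA-MB-231 array (adjusted p = 0.0746 and 0.0561). It was higher in 231BrM-2a than in 231BoM-1833 (0.55 ± 0.11, adjusted p = 0.00577), with a difference of 0.00 ± 0.11, adjusted p = 0.992 between 231BrM-2a and MDA-MB-231. JUP (plakoglobin) rose in 231BoM-1833 (0.63 ± 0.12, adjusted p = 0.0102), a call lost without MDA-MB-231 replicate 2 (adjusted p = 0.0908). CTNNA2, the neuronal alpha-catenin, rose there too (0.60 ± 0.13, adjusted p = 0.0183), not called without 231BoM-1833 replicate 2 or either MDA-MB-231 array (adjusted p between 0.0715 and 0.108), and was lower in 231BrM-2a than in 231BoM-1833 (-0.68 ± 0.13, adjusted p = 0.00593; 0.0562 without 231BrM-2a replicate 1). AFDN (afadin), which couples nectins to actin, rose in 231BrM-2a (0.66 ± 0.1, adjusted p = 0.00247) and in 231BoM-1833 (0.49 ± 0.1, adjusted p = 0.0143) against MDA-MB-231, the second not called without either MDA-MB-231 array (adjusted p = 0.0605 and 0.102). The actin-binding gene LIMA1 also rose in 231BrM-2a (0.56 ± 0.1, adjusted p = 0.00549), not called without replicate 2 of either line (adjusted p = 0.0532 and 0.0518), and in 231BoM-1833 (0.44 ± 0.1, adjusted p = 0.022), not called without 231BoM-1833 replicate 1 or either MDA-MB-231 array (adjusted p between 0.057 and 0.133). Neither gene passed between the derivatives (AFDN 0.17 ± 0.1, adjusted p = 0.288; LIMA1 0.12 ± 0.1, adjusted p = 0.454).

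Among 12 desmosome genes, DSC2, a desmosomal cadherin, changed the most. It had log2 values of 5.92 and 6.19 in 231BrM-2a, 8.74 and 8.46 in 231BoM-1833 and 8.05 and 7.86 in MDA-MB-231, with no overlap between lines. It fell 3.74-fold in 231BrM-2a against MDA-MB-231 (-1.90 ± 0.14, adjusted p = 5.24e-05) and was 5.85-fold lower in 231BrM-2a than in 231BoM-1833 (-2.55 ± 0.14, adjusted p = 4.45e-06). It rose in 231BoM-1833 against MDA-MB-231 (0.64 ± 0.14, adjusted p = 0.017), which ended without 231BoM-1833 replicate 1 or either MDA-MB-231 array (adjusted p between 0.0505 and 0.128). It was the only desmosome gene to pass in either comparison with MDA-MB-231. The calls were 8.33% of the list in both, beside 15.8% of all clusters in 231BoM-1833 and 19.0% in 231BrM-2a. The share between the derivatives was 25%, beside 23.5% of all clusters. Between the derivatives, the plakophilin genes PKP3 (0.57 ± 0.11, adjusted p = 0.00426) and PKP2 (0.47 ± 0.11, adjusted p = 0.0118) were higher in 231BrM-2a; PKP2 was not called without 231BrM-2a replicate 2 (adjusted p = 0.103).

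Of 18 atypical and giant cadherins, 2 rose and 0 fell in 231BoM-1833, and 2 rose and 2 fell in 231BrM-2a, against MDA-MB-231. In 231BrM-2a, 1 was higher and 3 lower than in 231BoM-1833. The calls were 11.1%, 22.2% and 22.2% of the list in these 3 comparisons, beside 15.8%, 19.0% and 23.5% of all clusters. FAT1, a giant protocadherin that restrains growth through the Hippo pathway, had 9.44 and 9.60 in 231BrM-2a, 10.81 and 10.82 in 231BoM-1833 and 9.99 and 10.04 in MDA-MB-231. It fell in 231BrM-2a (-0.49 ± 0.11, adjusted p = 0.0118) and rose in 231BoM-1833 (0.80 ± 0.11, adjusted p = 0.00194) against MDA-MB-231, and was 2.44-fold lower in 231BrM-2a than in 231BoM-1833 (adjusted p = 4.66e-05). CLSTN3, a calsyntenin, rose in 231BrM-2a (0.83 ± 0.14, adjusted p = 0.00326) and in 231BoM-1833 (0.48 ± 0.14, adjusted p = 0.0437); the second call was lost without any 1 of the 4 arrays compared (adjusted p between 0.078 and 0.216). CELSR2, a planar polarity cadherin, was higher in 231BrM-2a than in MDA-MB-231 (0.51 ± 0.11, adjusted p = 0.0115), also lost without any 1 of the 4 arrays (adjusted p between 0.0545 and 0.0828), and than in 231BoM-1833 (0.75 ± 0.11, adjusted p = 0.0012). FJX1, the relative of a fly kinase that acts on such cadherins, fell in 231BrM-2a against MDA-MB-231 (-0.49 ± 0.12, adjusted p = 0.0173), lost without replicate 2 of either line (adjusted p = 0.135 and 0.132), and was lower than in 231BoM-1833 (-0.49 ± 0.12, adjusted p = 0.0145), lost without 231BoM-1833 replicate 1 (0.0549) or 231BrM-2a replicate 2 (0.115).

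Enzymes that process or shed cadherins passed the test in the comparisons with 231BrM-2a. Of 13 measured, 3 rose and 2 fell there against MDA-MB-231, and 3 were higher and 2 lower than in 231BoM-1833. The calls were 38.5% of the list in both comparisons, beside 19.0% and 23.5% of all clusters. In 231BoM-1833 against MDA-MB-231, limma called 0, beside 15.8% of all clusters, with 1 at an unadjusted p under 0.05. PSEN2, a presenilin, had the largest difference there, 0.30 ± 0.1, adjusted p = 0.0798. ADAM10, which sheds the ectodomains of several cadherins and protocadherins, had 12.11 and 12.22 in 231BrM-2a, 11.19 and 11.10 in 231BoM-1833 and 11.01 and 10.98 in MDA-MB-231. It rose 2.25-fold in 231BrM-2a against MDA-MB-231 (1.17 ± 0.1, adjusted p = 0.000127) and was 2.03-fold higher than in 231BoM-1833 (adjusted p = 0.000166). FURIN, a convertase that can remove cadherin propeptides, had 8.61 and 8.76 in 231BrM-2a, 7.46 and 7.43 in 231BoM-1833 and 7.56 and 7.45 in MDA-MB-231, a 2.27-fold rise against MDA-MB-231 (1.18 ± 0.11, adjusted p = 0.000137), and was 2.36-fold higher in 231BrM-2a than in 231BoM-1833 (adjusted p = 6.52e-05). MMP3, a matrix protease known to cleave E-cadherin, fell 2.8-fold in 231BrM-2a (-1.49 ± 0.12, adjusted p = 8.46e-05) and was 2.97-fold lower than in 231BoM-1833 (adjusted p = 3.04e-05). These 6 calls passed under every alternative run.

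Of 15 genes of the epithelial to mesenchymal transition, 2 rose and 1 fell in 231BoM-1833, and 1 rose and 2 fell in 231BrM-2a, against MDA-MB-231. In 231BrM-2a, 2 were higher and 3 lower than in 231BoM-1833. The calls were 20%, 20% and 33.3% of the list in these 3 comparisons, beside 15.8%, 19.0% and 23.5% of all clusters. ZEB2, a repressor of CDH1, had 6.62 and 6.78 in 231BrM-2a, 7.95 and 7.67 in 231BoM-1833 and 7.05 and 6.94 in MDA-MB-231. It rose 1.76-fold in 231BoM-1833 against MDA-MB-231 (0.81 ± 0.13, adjusted p = 0.00416) and was 2.16-fold lower in 231BrM-2a than in 231BoM-1833 (adjusted p = 0.000314). TCF4, another such factor, moved likewise, by 0.91 ± 0.11, adjusted p = 0.00108 in 231BoM-1833 against MDA-MB-231 and by -0.99 ± 0.11, adjusted p = 0.000244 in 231BrM-2a against 231BoM-1833. ZEB1 fell in 231BrM-2a (-0.54 ± 0.11, adjusted p = 0.00855), a call lost without 231BrM-2a replicate 1 or MDA-MB-231 replicate 1 (adjusted p = 0.0671 and 0.0635), and in 231BoM-1833 (-0.44 ± 0.11, adjusted p = 0.0248), lost without 231BoM-1833 replicate 2 or either MDA-MB-231 array (adjusted p between 0.0849 and 0.124). SNAI1 rose in 231BrM-2a against MDA-MB-231 (0.81 ± 0.17, adjusted p = 0.0105), lost without 231BrM-2a replicate 2 or either MDA-MB-231 array (adjusted p between 0.0532 and 0.0775). It was also higher than in 231BoM-1833 (0.64 ± 0.17, adjusted p = 0.0239), lost without replicate 2 of 231BrM-2a or 231BoM-1833 (adjusted p = 0.169 and 0.123). SNAI2 was higher in 231BrM-2a than in 231BoM-1833 (0.73 ± 0.19, adjusted p = 0.0239), with the 231BoM-1833 replicates at 9.29 and 8.58, and was not called without 231BoM-1833 replicate 2 or either 231BrM-2a array (adjusted p between 0.0613 and 0.112). VIM fell in 231BrM-2a against MDA-MB-231 (-0.37 ± 0.099, adjusted p = 0.0294), lost without any 1 of the 4 arrays (adjusted p between 0.104 and 0.145) and with a replicate block (0.0548), and was lower than in 231BoM-1833 (-0.59 ± 0.099, adjusted p = 0.00256).

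Of 14 regulators of the protocadherin array, 2 rose and 1 fell in each derivative against MDA-MB-231, and 2 were higher and 3 lower in 231BrM-2a than in 231BoM-1833. The calls were 21.4% of the list in 231BoM-1833 and in 231BrM-2a, beside 15.8% and 19.0% of all clusters. The share between the derivatives was 35.7%, beside 23.5%. CTCF itself had 9.39 and 9.60 in 231BrM-2a, 9.35 and 9.38 in 231BoM-1833 and 9.50 and 9.54 in MDA-MB-231 and passed in no comparison (adjusted p of 0.361 or more). DNMT3B, a de novo DNA methyltransferase, had 7.02 and 7.14 in 231BrM-2a, 7.93 and 8.16 in 231BoM-1833 and 7.32 and 7.20 in MDA-MB-231. It rose 1.72-fold in 231BoM-1833 against MDA-MB-231 (0.78 ± 0.12, adjusted p = 0.00366) and was 1.95-fold lower in 231BrM-2a than in 231BoM-1833 (adjusted p = 0.000478). TRIM28, a corepressor that recruits a histone methyltransferase, had 11.10 and 11.22 in 231BrM-2a, 10.32 and 10.41 in 231BoM-1833 and 11.15 and 11.18 in MDA-MB-231. It fell 1.74-fold in 231BoM-1833 against MDA-MB-231 (-0.80 ± 0.11, adjusted p = 0.00191) and was higher in 231BrM-2a than in 231BoM-1833 by 0.79 ± 0.11, adjusted p = 0.000733. STAG2, a cohesin subunit, fell in 231BrM-2a against MDA-MB-231 (-0.62 ± 0.12, adjusted p = 0.00684), not called without 231BrM-2a replicate 1 or MDA-MB-231 replicate 2 (adjusted p = 0.0591 and 0.0653), and was lower than in 231BoM-1833 (-0.93 ± 0.12, adjusted p = 6e-04). SMCHD1, a silencing factor of the array in mouse, rose in 231BrM-2a (0.54 ± 0.11, adjusted p = 0.00964). That call was lost without 231BrM-2a replicate 1 (0.45) or MDA-MB-231 replicate 2 (0.51). It also rose in 231BoM-1833 (0.42 ± 0.11, adjusted p = 0.0347), lost without any 1 of the 4 arrays (0.37 to 0.48). With the clusters of each symbol averaged, the limma difference of SMCHD1 in 231BoM-1833 was 0.29, adjusted p = 0.1. The cohesin gene SMC1A rose in 231BrM-2a (0.47 ± 0.12, adjusted p = 0.0223), lost without any 1 of the 4 arrays (adjusted p between 0.051 and 0.156), and was higher than in 231BoM-1833 (0.76 ± 0.12, adjusted p = 0.0016). Whether any of these bears on the beta genes was not tested.

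**Figure D4:**
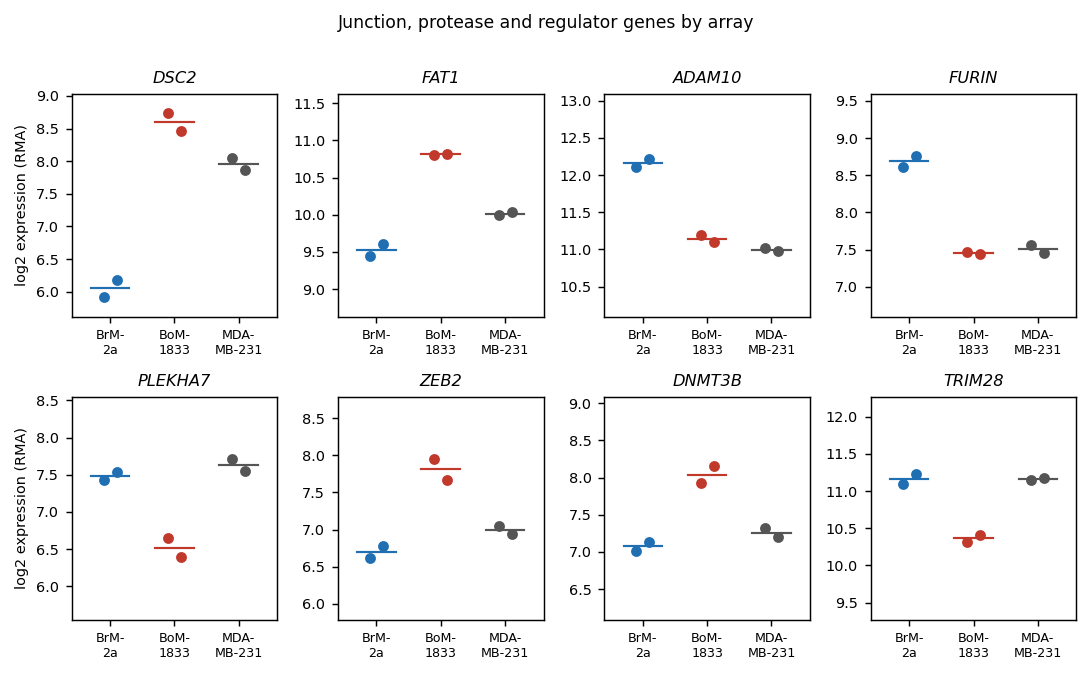
Log2 expression of 8 genes of junctions, cadherin processing and regulation by array; each point is 1 array and bars are the means of the 2 arrays. DSC2 averages 6.05 in 231BrM-2a, 8.60 in 231BoM-1833 and 7.96 in MDA-MB-231, and ADAM10 and FURIN are highest in 231BrM-2a, at 12.16 and 8.69.

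Markers of other cell types moved in part. Of 7 endothelial markers, CDH5 among them, 0 rose and 2 fell (KDR and PECAM1) in 231BrM-2a and 1 rose (KDR) and 0 fell in 231BoM-1833 against MDA-MB-231. The log2 of their summed level was 8.65 to 8.79 in 231BrM-2a, 9.26 to 9.40 in 231BoM-1833 and 9.15 to 9.18 in MDA-MB-231. In that order KDR averaged 6.86, 8.43 and 7.99 and CDH5 5.52, 5.52 and 5.56, so the sum does not stand for the whole list. The calls were 28.6% of the list in 231BrM-2a and 14.3% in 231BoM-1833, beside 19.0% and 15.8% of all clusters. Of 6 leukocyte markers, 0 rose and 2 fell (CD14 and LCP2) in 231BrM-2a, and 1 rose (CD14) and 1 fell (LCP2) in 231BoM-1833. The log2 of their summed level was 8.35 to 8.42 in 231BrM-2a, 9.04 to 9.17 in 231BoM-1833 and 8.77 to 8.81 in MDA-MB-231. In that order CD14 averaged 7.11, 8.50 and 7.61 and LCP2 6.16, 5.86 and 6.77. The calls were 33.3% of the list in both derivatives, beside 19.0% of all clusters in 231BrM-2a and 15.8% in 231BoM-1833. Of 6 neural markers, 2 rose (MAP2 and RBFOX3) and 2 fell (NES and NEFL) in 231BrM-2a, and 0 rose and 1 fell (NEFL) in 231BoM-1833. Their summed level on the log2 scale was 9.41 to 9.62 in 231BrM-2a, 8.97 to 9.03 in 231BoM-1833 and 9.19 to 9.21 in MDA-MB-231. The calls were 66.7% of the list in 231BrM-2a and 16.7% in 231BoM-1833, beside 19.0% and 15.8% of all clusters. Of the 6 fibroblast markers described with CDH11, 0 rose and 1 fell (DCN) in 231BoM-1833, or 16.7%, beside 15.8% of all clusters. No marker can be called absent, since the files give no background level, and the part of these markers in the members' changes was not tested.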

How the data were processed

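Transcript levels were measured on Affymetrix Human Gene 1.0 ST arrays. The deposited values are log2 expression per transcript cluster, made by the authors, per the labels and the submitters' processing notes, with RMA in Affymetrix Expression Console; versions and the genome build are not given in the sources used here. RMA puts all arrays on 1 scale, so cells with more or less RNA overall would look alike. Of 33297 clusters, 21214 had a symbol in the platform annotation, 19460 of them exactly 1.

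In R 4.3.3, limma 3.58.1 fitted 1 mean per line to the 21214 clusters on the 6 arrays (lmFit, then eBayes). Tests were two-sided, p-values were Benjamini-Hochberg adjusted over these clusters and 0.05 was the threshold. eBayes added 6.06 prior degrees of freedom to 3 residual ones. The fit was tested on simulated data. Differences are log2 changes ± SE. Depth does not apply to arrays; their number limits the precision.

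In each comparison the text names up to 12 members past the threshold, by size of change, 5 members always (CDH1, CDH2, CDH3, CDH5 and CDH11; CDH13 was not analysed here), and up to 3 genes of each of 6 companion lists; other names were added after their values were seen. Members and lists were chosen with earlier results of these data known. Promoters came from RefSeq (GRCh38.p14). Alternatives were a quantile normalization repeated on the deposited values, a filter on dim clusters, all clusters tested and an intensity trend. Others were only the lines compared, averaged clusters, a replicate block and leaving out each array.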

Additional observations from a re-analysis of the deposited data

Results flagged for a closer look

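The 2 derivatives departed from MDA-MB-231 by different amounts in 11 members, as tested by the direct comparison of 231BrM-2a with 231BoM-1833 (limma, adjusted p under 0.05, 23.5% of all clusters called). The log2 difference of 231BrM-2a minus 231BoM-1833 was 2.38 for PCDHB2 and 1.67 for PCDHB16, which moved in opposite directions against MDA-MB-231, with both changes called. It was -1.12 for PCDHB6, 0.80 for PCDHB11, 0.70 for PCDHB14, 0.51 for PCDHB13, 0.50 for PCDHB8 and 0.43 for PCDHB12. Among CDH genes it was -0.96 for CDH11, which fell in both derivatives, 0.61 for CDH3 and -0.49 for CDH10. Groups of 2 arrays were too small to test for single arrays that stand apart.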

How the results depend on the processing

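Of 28 member calls, 8 passed under every alternative run for them and 20 were lost under at least 1, of which 8 were lost only when an array was left out; 0 changed sign. The 8 were PCDHB2 in 231BoM-1833 and PCDHB16 and CDH11 in 231BrM-2a against MDA-MB-231, and PCDHB2, PCDHB16, PCDHB6, PCDHB11 and CDH11 between the derivatives. Of these genes, PCDHB16, PCDHB6 and PCDHB11 could not be tried with dim clusters left out, nor could any other dim member. Only the calls of PCDHB2 and CDH11 among the 8 were tried in that way. With dim clusters left out, 17 members were tested, and 4 (23.5%), 2 (11.8%) and 2 (11.8%) passed in 231BoM-1833 against MDA-MB-231, in 231BrM-2a against MDA-MB-231 and in 231BrM-2a against 231BoM-1833, beside 24.5%, 28.8% and 34.1% of the clusters tested; fewer members were there to be called. With clusters lacking a symbol tested too, 4, 4 and 8 passed, or 6.35%, 6.35% and 12.7%, beside 6.67%, 8.69% and 12.8% of all clusters. Leaving out each array gave 2 to 10, 4 to 6 and 7 to 12 members in the same order; the lowest count came without MDA-MB-231 replicate 1 in the first (3 without its replicate 2), without 231BrM-2a replicate 2 or either MDA-MB-231 array in the second and without 231BrM-2a replicate 2 in the third. Calls over all clusters moved too, to between 4.39% and 13.8%, 8.32% and 11.3%, and 14.1% and 22.4%, against 15.8%, 19.0% and 23.5% with every array. With a lone array in a line, its spread is assumed to equal that of the others. Replicate numbers did not pair the arrays (correlations of deviations 0.036, -0.16 and -0.17 over the 3 pairs of lines). A replicate block gave 7, 7 and 11 members (11.1%, 11.1% and 17.5%), beside 12.8%, 16.7% and 21.5% of all clusters. With crossed numbers, chosen after seeing the data, 9 (14.3%) and 14 (22.2%) passed in the comparisons of 231BrM-2a with MDA-MB-231 and with 231BoM-1833. Over all clusters these shares were 21.1% and 25.4%. Of 51 companion calls, 23 were lost under at least 1 alternative. Some values that never passed changed sign. In 231BoM-1833 against MDA-MB-231, leaving out each array gave -0.10 to 0.00 for CDH1, -0.14 to 0.07 for CDH2 and -0.10 to 0.02 for CDH5. Between the derivatives, CDH5 had -0.06 to 0.06 without single arrays and 0.00 after repeated quantile normalization.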

Other observations

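Clusters named for several members were outside the comparisons above. The cluster shared by 15 alpha protocadherin symbols had log2 values of 5.76 and 5.63 in 231BrM-2a, 5.63 and 5.84 in 231BoM-1833 and 5.70 and 5.80 in MDA-MB-231, and passed in no comparison (adjusted p between 0.785 and 0.96). It is the only one that names PCDHA9, PCDHAC1 and PCDHAC2. The 2 clusters shared by PCDH11X and PCDH11Y passed in none either (adjusted p between 0.399 and 0.829). The second cluster of PCDHA2 differed by -0.11 between 231BrM-2a and MDA-MB-231, against -0.12 for the one used.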
